A study of Mus musculus with 24 samples.

Results

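Aminoacyl-tRNA synthetases are the enzymes that attach each amino acid to its transfer RNA. They were followed here by transcript level in the NIH 3T3 L1 mouse line, whose fibroblast-like cells fill with fat once induced with hormones. The genes were taken by their names, a single letter for the amino acid (or Ep) followed by ars and an optional 1 or 2, with Farsa, Farsb and Qars added. A total of 37 mouse genes fit that rule, 33 had a probe on the array, and 30 had a detectable probe (detection p under 0.05 on 3 or more of 24 arrays). These 30 genes, 18 cytosolic and 12 mitochondrial, were among 9558 genes tested. Cars, Hars2 and Yars2 had probes but none that passed, and the remaining genes were not analysed here.

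The 24 arrays covered days 0, 2, 4, 6, 8, 10, 14 and 18, with 3 replicates per day. Day 0 is named undifferentiated, and the treatment given for days 0 to 4 is a differentiation medium with IBMX, which blocks phosphodiesterases, together with insulin and the glucocorticoid dexamethasone. For days 6 to 18 a maturation medium with insulin is added, so time and medium changed together and cannot be told apart. The labels do not say whether day 0 preceded induction, nor whether replicates were separate cultures. The p-values therefore measure the spread between these samples, which may be technical. All samples share a single cell line, and a culture holds cells at different stages, so in these bulk samples fewer cells of a kind and less RNA per cell cannot be told apart.

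In mammals, separate genes encode most cytosolic and mitochondrial synthetases, and the mitochondrial enzymes, made in the cytosol and imported, serve the few proteins translated inside the organelle. Several cytosolic enzymes sit in a multisynthetase complex held together by the scaffold proteins Aimp1, Aimp2 and Eef1e1 (AIMP3). Many cytosolic synthetase genes are known targets of ATF4, the transcription factor of the integrated stress response, which binds together with C/EBP proteins to a composite element often called CARE. A differentiating fat cell first divides and then expands its mitochondria and lipid-making enzymes.

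The CARE letters TGATGNAA were searched on both strands of the promoter windows that RefSeq gives for GRCm38.p6, from 250 bases before to 50 bases after the start of a transcript, which for Aars and Yars lies inside the annotated gene. Windows were found for 23 of the 30 genes, 12 cytosolic and 11 mitochondrial, and Hars, Lars, Nars, Pars2, Rars, Vars and Wars had none in the table. The letters occurred in 5 of the 12 cytosolic windows, those of Yars, Gars, Aars, Iars and Tars, and in 0 of the 11 mitochondrial ones. They occurred in 4.06% of all 27025 windows and in 2.50% of the 7786 windows of tested genes. These 5 windows are shown because they hold the letters. The match is printed in capitals, read 5′ to 3′ along the gene:
Yars (chr4:129189653-129189952, plus strand): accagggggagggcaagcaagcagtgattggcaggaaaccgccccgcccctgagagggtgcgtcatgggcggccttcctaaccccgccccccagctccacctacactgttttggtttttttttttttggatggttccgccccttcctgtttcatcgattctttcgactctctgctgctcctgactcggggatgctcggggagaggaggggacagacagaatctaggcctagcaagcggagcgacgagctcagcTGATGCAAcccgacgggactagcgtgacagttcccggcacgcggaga
Gars (chr6:55037751-55038050, plus strand): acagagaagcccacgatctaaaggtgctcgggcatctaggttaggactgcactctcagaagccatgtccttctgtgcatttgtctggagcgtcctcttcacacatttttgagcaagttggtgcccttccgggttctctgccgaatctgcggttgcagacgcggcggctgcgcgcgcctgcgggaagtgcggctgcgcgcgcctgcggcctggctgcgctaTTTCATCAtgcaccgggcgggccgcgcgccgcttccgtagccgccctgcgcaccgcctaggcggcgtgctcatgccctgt
Aars (chr8:111033592-111033891, plus strand): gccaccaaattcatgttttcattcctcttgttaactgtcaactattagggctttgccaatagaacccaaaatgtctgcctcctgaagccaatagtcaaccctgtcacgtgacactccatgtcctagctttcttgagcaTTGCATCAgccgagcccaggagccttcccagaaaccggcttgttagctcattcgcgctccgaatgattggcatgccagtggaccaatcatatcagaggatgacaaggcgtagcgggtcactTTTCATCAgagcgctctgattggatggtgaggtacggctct
Iars (chr13:49681880-49682179, plus strand): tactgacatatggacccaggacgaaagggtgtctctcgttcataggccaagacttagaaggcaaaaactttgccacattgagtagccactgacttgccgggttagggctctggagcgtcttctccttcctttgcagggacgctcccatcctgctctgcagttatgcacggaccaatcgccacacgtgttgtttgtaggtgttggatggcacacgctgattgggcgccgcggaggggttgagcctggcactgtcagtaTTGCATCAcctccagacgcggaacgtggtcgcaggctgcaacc
Tars (chr15:11399609-11399908, minus strand): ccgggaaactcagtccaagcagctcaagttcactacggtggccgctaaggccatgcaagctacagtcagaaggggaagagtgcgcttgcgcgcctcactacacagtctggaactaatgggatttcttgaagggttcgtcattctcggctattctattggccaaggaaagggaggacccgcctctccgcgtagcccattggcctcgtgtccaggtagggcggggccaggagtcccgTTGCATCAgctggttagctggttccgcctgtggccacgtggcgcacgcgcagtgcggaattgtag

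Of these matches, the one of Yars read TGATGCAA and began at position 4 counted from the start site, while the matches of the other genes lay on the opposite strand and read TTGCATCA or TTTCATCA. Aars carried 2 of them, with first bases at -112 and 10. The single matches of Gars, Iars and Tars began at -30, 8 and -15. The E-box letters CACGTG occurred in 4 of the 12 cytosolic windows (Farsb, Aars, Iars and Tars) and in 1 of the 11 mitochondrial ones (Ears2), against 7.24% of all windows and 10.1% of those of tested genes. The palindromic NRF1 motif occurred in 0 windows of either group, and in 0.977% of all windows. The CCAAT letters occurred in 7 cytosolic and 4 mitochondrial windows, against 37.9% of all windows. The GC box GGGCGG occurred in 7 cytosolic and 10 mitochondrial windows, against 35.9% of all windows and 63.4% of those of tested genes.

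Levels are normalized log2 intensities, and differences are log2 changes ± SE of a limma fit with n = 3 arrays per day, adjusted by Benjamini-Hochberg over the 9558 genes and called under 0.05. By the moderated F test, 14 of the 18 cytosolic and 10 of the 12 mitochondrial genes changed over the course. Of all genes tested 74.5% changed, so these shares lay near that of all genes. Without Yars, which was detected on day 2 alone, 13 of 17 cytosolic genes changed. The genes that did not pass were Aars, Hars, Sars and Tars in the cytosol, and Pars2 and Wars2 in mitochondria. This fit did not pair samples by replicate number. With replicate number as a block, Aars, Hars, Sars, Tars and Wars2 were called between some days, so not passing here does not mean unchanged. The day with the highest mean was day 2 for 10 cytosolic genes (Yars among them), day 4 for 5, day 6 for 2 and day 8 for 1. For mitochondrial genes it was day 6 for 7, day 8 for 2, and days 0, 2 and 4 for 1 each.

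**Figure D1:**
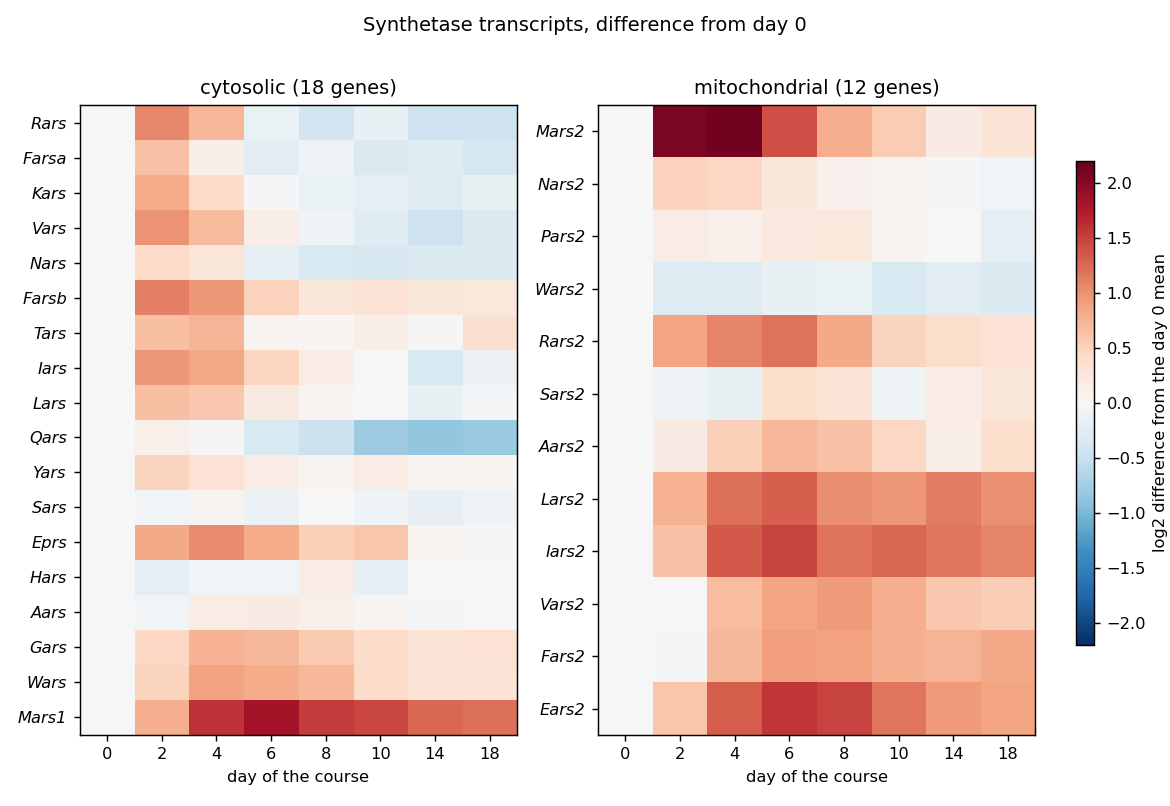
Log2 difference of each synthetase's day mean from its day 0 mean, by day, with cytosolic genes on the left and mitochondrial genes on the right; red is higher and blue lower than day 0. The darkest cells of the cytosolic panel belong to Mars1 and those of the mitochondrial panel to Mars2.

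The median difference from day 0 over the 18 cytosolic genes, averaged over replicates, was 0.64 ± 0.03 on day 2 and 0.58 ± 0.09 on day 4 (SD, n = 3). It had come down to 0.15 ± 0.03 by day 6 and 0.07 ± 0.02 by day 8, and was -0.15 ± 0.03 on day 14 and -0.07 ± 0.03 on day 18. The cytosolic median was thus highest early and was near its starting level by day 8. The median over the 12 mitochondrial genes was 0.34 ± 0.11 on day 2, 0.71 ± 0.03 on day 4 and 0.91 ± 0.04 on day 6. It was 0.81 ± 0.05 on day 8, 0.58 ± 0.08 on day 10, 0.33 ± 0.07 on day 14 and 0.38 ± 0.08 on day 18. On each of the days 6 to 18 the mitochondrial median of every replicate lay above the cytosolic one.

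**Figure D2:**
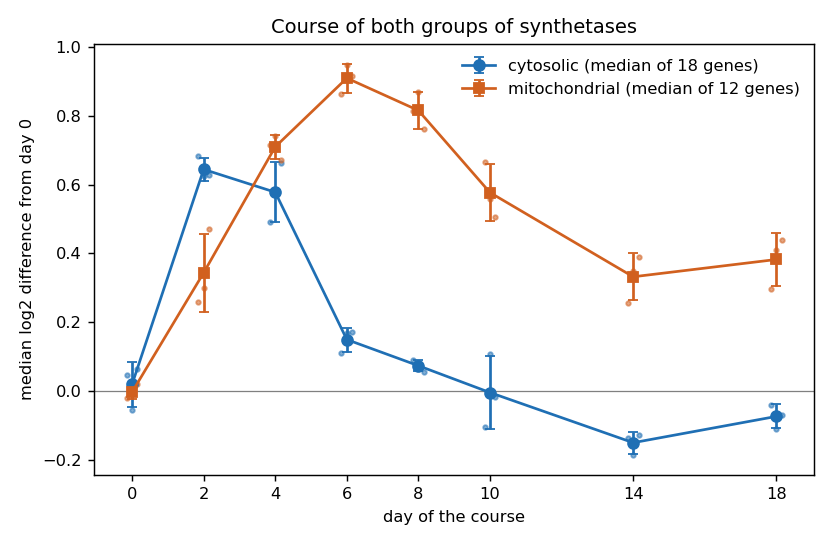
Median log2 difference from the day 0 means over the cytosolic (18 genes) and mitochondrial (12 genes) synthetases, against day; small points are replicates and bars are SD (n = 3). The cytosolic line is highest on day 2 at 0.64 and the mitochondrial line on day 6 at 0.91.

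Day 2 versus day 0 covers the first interval of the course. Of the 18 cytosolic genes 13 rose and 0 fell, with a median log2 change of 0.65, against 25% of all genes higher and 26.5% lower and a median of 0.02 over all genes. Without Yars, which was detected on no day 0 array, 12 of 17 rose. Of the 12 mitochondrial genes 6 rose and 0 fell, with a median of 0.34. The arrays of the days did not overlap, day 2 being higher, for 13 cytosolic and 6 mitochondrial genes, against 28.4% of all genes. Yars was among these 13, a separation that its selection favoured.

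Within the cytosolic set, the enzymes of the multisynthetase complex rose in 6 of 7 cases with a median of 0.81. Those outside it rose in 7 of 11, Yars among them, with a median of 0.49. The difference was not tested. Among the complex enzymes, Rars, which charges arginine (chromosome 11, 35808381 to 35834528, GRCm38.p6, as for all positions here), stood at 10.42, 10.39 and 10.38 on day 2, against 9.47, 9.13 and 9.43 on day 0. The 3 day 2 values lay within a few hundredths of each other and far above day 0, a rise of 1.06 ± 0.13 (adjusted p = 5.37e-07). Iars, for isoleucine (chromosome 13, 49682130 to 49734267), had 10.55, 10.27 and 10.26 on day 2, against 9.46, 9.37 and 9.39 on day 0. The groups were well apart, and the rise was 0.96 ± 0.08 (adjusted p = 6.36e-09). Kars, which charges lysine in both compartments (chromosome 8, 111993439 to 112011354), had 10.23, 10.14 and 10.18 on day 2, against 9.39, 9.27 and 9.44 on day 0. It rose by 0.81 ± 0.10 (adjusted p = 9.33e-07), again with no overlap.

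Eprs, the joined glutamate and proline enzyme (chromosome 1, 185361417 to 185428360), had 9.24, 8.63 and 8.65 on day 2, against 8.19, 7.93 and 7.90 on day 0. Its rise of 0.83 ± 0.26 (adjusted p = 0.0111) leaned on replicate 1 of day 2, and without that array it was 0.63 (adjusted p = 0.0725). Lars, for leucine (chromosome 18, 42202298 to 42262237), rose by 0.66 ± 0.08 (adjusted p = 3.52e-07), with all day 2 arrays above all day 0 arrays. Qars, the glutamine enzyme (chromosome 9, 108508005 to 108515941), was the member of the complex that did not pass, at 11.02, 10.97 and 10.96 on day 2, against 10.96, 10.83 and 10.80 on day 0. These overlapped slightly, with a change of 0.12 ± 0.10 (adjusted p = 0.347).

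Outside the complex, both chains of the phenylalanine enzyme rose. Farsb, the beta chain (chromosome 1, 78417958 to 78488897), had 11.61, 11.57 and 11.49 on day 2, against 10.35, 10.45 and 10.51 on day 0. That rise of 1.12 ± 0.06 (adjusted p = 1.33e-11) was the largest of the cytosolic set. Farsa, the catalytic alpha chain (chromosome 8, 84856969 to 84869257), rose by 0.64 ± 0.15 (adjusted p = 0.00124). Vars, for valine (chromosome 17, 35000907 to 35016329), had 8.93, 8.99 and 9.24 on day 2, against 7.94, 8.08 and 8.17 on day 0. It rose by 0.99 ± 0.09 (adjusted p = 4.45e-09), with no overlap. Smaller rises were found for Wars (tryptophan, 0.49 ± 0.12, adjusted p = 0.00157), Gars (glycine, in both compartments, 0.46 ± 0.11, adjusted p = 0.00122) and Nars (asparagine, 0.43 ± 0.09, adjusted p = 0.000666).

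Yars, the tyrosine enzyme (chromosome 4, 129189734 to 129219240), was detected on day 2 alone, where it had 4.83, 5.08 and 4.91, against 4.40, 4.50 and 4.43 on day 0. It was at least 1.11-fold higher on day 2, a lower bound since day 0 was below detection. It passed the detection filter only through its day 2 arrays, so a difference between day 2 and other days was built into its selection and its calls are a description.

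Aars (alanine), Sars (serine), Hars (histidine) and Tars (threonine) did not pass on day 2. Aars, with 2 matches to the CARE letters, changed by -0.06 ± 0.12 (adjusted p = 0.728). Sars changed by -0.06 ± 0.09 (adjusted p = 0.63), and its other probe went its own way, with a correlation of -0.07 over the 8 day means and a day 2 difference of 0.43. Hars was detected on 14 arrays and on none of day 2, so its course is poorly resolved.

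Tars (chromosome 15, 11383663 to 11399658) was split by replicate. It had 7.35, 8.28 and 8.37 on day 2, against 6.60, 7.75 and 7.67 on day 0, and replicate 1 was the lowest array on every day. Each replicate was higher on day 2 than its own number on day 0, though the groups overlapped. The change of 0.66 ± 0.42 did not pass (adjusted p = 0.212). Samples of the same replicate number deviated together across the course. With replicate number as a block the change was 0.66 ± 0.10 and passed (adjusted p = 1.03e-05). A second Tars probe, detected on all 24 arrays, changed less. Its differences were 0.38 from day 0 to day 2, -0.04 from day 2 to day 4 and -0.09 from day 4 to day 6.

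The mitochondrial enzyme with the largest change of all was Mars2, for methionine (chromosome 1, 55237177 to 55240058). It had 7.44, 7.55 and 7.26 on day 2, against 5.27, 5.45 and 5.30 on day 0. The groups were far apart, a 4.21-fold rise of 2.08 ± 0.11 (adjusted p = 1.89e-12). Rises were also found for Rars2 (arginine, 0.86 ± 0.10, adjusted p = 5.10e-07), Lars2 (leucine, 0.76 ± 0.09, adjusted p = 1.83e-07), Iars2 (isoleucine, 0.64 ± 0.13, adjusted p = 0.000356), Ears2 (glutamate, 0.61 ± 0.07, adjusted p = 6.76e-07) and Nars2 (asparagine, 0.51 ± 0.14, adjusted p = 0.00469). The probe of Nars2 was dim and detected on 1 of 3 day 0 arrays.

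Vars2, Fars2, Sars2, Aars2, Pars2 and Wars2 did not pass on day 2. Fars2 had 8.87, 8.94 and 8.91 on day 2, against 8.82, 8.93 and 9.06 on day 0. Vars2 had 8.12, 8.12 and 8.11 on day 2, against 8.13, 8.00 and 8.28 on day 0. In both the day 2 values sat inside the day 0 range, while the cytosolic Farsb and Vars stood apart on the same arrays. Wars2 was at -0.28 ± 0.24 (adjusted p = 0.347), and with replicate as a block it fell by 0.28 (adjusted p = 0.00856).

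On day 4 versus day 2, 3 of the 18 cytosolic genes rose and 4 fell, against 18.7% of all genes higher and 22.7% lower, so the counts were near those over all genes. Mars1, the cytosolic methionine enzyme of the complex (chromosome 10, 127296221 to 127311786), rose by 0.78 ± 0.10 (adjusted p = 2.32e-06), Wars by 0.40 ± 0.12 (adjusted p = 0.0104) and Gars by 0.30 ± 0.11 (adjusted p = 0.0337). Farsa, Kars, Rars and Vars fell, by 0.49, 0.39, 0.33 and 0.30 on the log2 scale. Under median scaling the split was 4 higher and 3 lower. In the fit with a replicate block Aars rose by 0.22 (adjusted p = 0.0174) and Farsb fell by 0.16 (adjusted p = 0.0408). Leaving out replicate 2 of day 2 left 1 cytosolic gene higher, and leaving out replicate 1 of day 2 or replicate 2 of day 4 left 2 lower. The calls of Gars and Rars were the least secure, lost in 4 and 5 of the 6 fits that leave out an array, with adjusted p up to 0.169 and 0.153. Of the mitochondrial genes 5 rose and 0 fell. These were Fars2 (0.75 ± 0.08, adjusted p = 3.30e-07), Ears2 (0.73 ± 0.07, adjusted p = 1.18e-07), Iars2 (0.71 ± 0.13, adjusted p = 0.000183), Vars2 (0.70 ± 0.08, adjusted p = 2.65e-07) and Lars2 (0.44 ± 0.09, adjusted p = 0.000247). Fars2 and Vars2, level on day 2, thus began to rise in this interval. Blocked by replicate, Aars2 rose by 0.34 (adjusted p = 0.022) and Rars2 by 0.22 (adjusted p = 0.0396).

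Day 6 versus day 4 spans the addition of the maturation medium. Of the cytosolic genes 0 rose and 8 fell, against 15.3% of all genes higher and 14% lower. The genes that fell were Rars, Vars, Nars, Kars, Farsb, Lars, Iars and Qars, with Rars the most changed at -0.87 ± 0.13 (adjusted p = 2.00e-05). Blocking by replicate, Mars1 rose by 0.25 (adjusted p = 0.0194), Tars fell by 0.68 (adjusted p = 1.61e-05) and Farsa fell by 0.39 (adjusted p = 0.0148). Sars fell by 0.18 in that fit (adjusted p = 0.0499), while its other probe changed by 0.20, the other way, between these days. The second Tars probe changed by -0.09 between these days. Of the mitochondrial genes Ears2 and Sars2 rose, by 0.24 and 0.55, and Mars2 fell by 0.70. Without replicate 2 of day 4, replicate 3 of day 4 or replicate 3 of day 6, 1 mitochondrial gene was higher, as Ears2 was lost (adjusted p = 0.0549 to 0.0604). Qars was lost without replicate 1 of day 4 (-0.29, adjusted p = 0.0535) and without replicate 2 of day 6 (-0.28, adjusted p = 0.0572). Without background correction 1 cytosolic gene was higher and 8 lower, and 4 mitochondrial genes were higher and 1 lower. Fars2 rose by 0.20 with replicate as a block (adjusted p = 0.0431). Sars2 is dim, and was detected on 1 of 3 day 4 arrays.

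Day 6 versus day 2 sets the day with the highest mitochondrial median against the day with the highest cytosolic one. This comparison was chosen after the courses had been seen, so it describes them, and it shares its day 2 arrays with the comparison with day 0. Of the 18 cytosolic genes 2 were higher and 10 lower on day 6, with a median of -0.46, against 23.5% of all genes higher, 27.4% lower and a median of -0.03. Without Yars, 9 of 17 were lower and the median was -0.47. Of the 12 mitochondrial genes 8 were higher and 1 lower, with a median of 0.51. The cytosolic genes called lower were Farsa, Farsb, Iars, Kars, Lars, Nars, Qars, Rars, Vars and Yars, and those called higher were Mars1 and Wars. The mitochondrial genes called higher were Aars2, Ears2, Fars2, Iars2, Lars2, Rars2, Sars2 and Vars2, and the one called lower was Mars2. Yars, undetected on day 6, was at least 1.04-fold lower, a difference its selection favoured, and its call was lost with median scaling (-0.14, adjusted p = 0.234) and in the authors' table (-1.35, adjusted p = 0.0778). In the blocked fit Aars and Gars were higher too (0.25 each, adjusted p = 0.00684 for Aars and 0.0028 for Gars). Tars was lower in that fit (-0.60, adjusted p = 3.09e-05). The second Tars probe changed by -0.04 from day 2 to day 4 and by -0.09 from day 4 to day 6. Under median scaling the cytosolic split was 4 higher and 9 lower. Leaving out replicate 1 of day 2 gave 4 cytosolic genes higher, and leaving out replicate 2 of day 2 gave 1, since Wars was then 0.26 (adjusted p = 0.122).

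**Figure D3:**
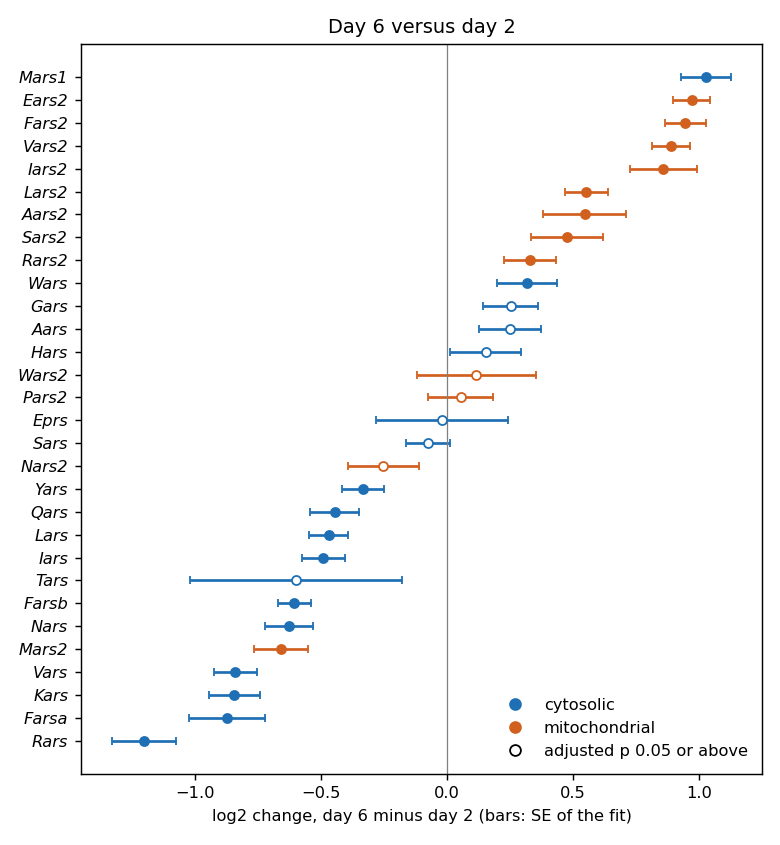
Log2 change on day 6 minus day 2 for each of the 30 synthetases, with SE of the fit; blue is cytosolic, orange is mitochondrial, and open circles did not pass. Orange points lie mostly to the right and blue points to the left, with Mars1 at 1.03 and Mars2 at -0.66 on the side of the other colour.

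Paired by amino acid, the enzymes of both compartments could be compared for 12 amino acids in 13 pairs, with Eprs set against both Ears2 and Pars2 and both phenylalanine chains against Fars2. The mitochondrial change from day 2 to day 6 was the higher one in 11 of the 13 pairs, and in 6 pairs the cytosolic gene was called lower and the mitochondrial one higher. No test of the difference within a pair was made. The days were chosen as those with the highest cytosolic and the highest mitochondrial median. That choice favoured such a split, so these counts of pairs only describe the courses. The 6 pairs were Farsa with Fars2, Farsb with Fars2, Iars with Iars2, Lars with Lars2, Rars with Rars2 and Vars with Vars2.

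For isoleucine, Iars2 (chromosome 1, 185286642 to 185329419) had 9.54, 9.20 and 9.47 on day 6, against 8.66, 8.42 and 8.56 on day 2, all higher, a change of 0.86 ± 0.13 (adjusted p = 1.29e-05). Iars had 9.87, 9.97 and 9.79 on day 6, against 10.55, 10.27 and 10.26 on day 2, all lower, a change of -0.49 ± 0.08 (adjusted p = 4.97e-05). All 3 arrays of the mitochondrial gene were thus higher, and all 3 of the cytosolic gene lower, on the same day. For valine, Vars2 (chromosome 17, 35655634 to 35667639) had 8.98, 9.06 and 8.98 on day 6, against 8.12, 8.12 and 8.11 on day 2. Vars had 8.20, 8.18 and 8.26 on day 6, against 8.93, 8.99 and 9.24 on day 2. The changes were 0.89 ± 0.08 (adjusted p = 3.88e-09) for Vars2 and -0.84 ± 0.09 (adjusted p = 4.78e-08) for Vars, with no overlap in either.

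For arginine, Rars2 (chromosome 4, 34614957 to 34660167) had 9.54, 9.73 and 9.67 on day 6, against 9.24, 9.29 and 9.42 on day 2, higher by 0.33 ± 0.10 (adjusted p = 0.0114). Rars had 9.21, 9.11 and 9.27 on day 6, against 10.42, 10.39 and 10.38 on day 2, a change of -1.20 ± 0.13 (adjusted p = 8.41e-08). That was the largest fall of the set, and it left Rars near its day 0 level of 9.34 ± 0.18. For phenylalanine, Fars2 (chromosome 13, 36117428 to 36537595) had 9.81, 9.91 and 9.84 on day 6, against 8.87, 8.94 and 8.91 on day 2, a change of 0.95 ± 0.08 (adjusted p = 5.34e-09). Farsb changed by -0.61 ± 0.06 (adjusted p = 1.02e-07) and Farsa by -0.87 ± 0.15 (adjusted p = 5.27e-05). For leucine, Lars2 (chromosome 9, 123366927 to 123462675) changed by 0.55 ± 0.09 (adjusted p = 1.32e-05) and Lars by -0.47 ± 0.08 (adjusted p = 3.05e-05).

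Methionine ran the other way. Mars1 had 8.02, 7.87 and 8.05 on day 0, 8.75, 8.79 and 8.82 on day 2, 9.45, 9.56 and 9.67 on day 4, and 9.73, 9.82 and 9.89 on day 6. Its arrays climbed at each of these days without overlap, and it averaged 9.19 ± 0.06 on day 18. Mars2 had means of 5.34 ± 0.10 on day 0, 7.41 ± 0.14 on day 2, 7.46 ± 0.05 on day 4, 6.76 ± 0.20 on day 6, 6.14 ± 0.09 on day 8 and 5.64 ± 0.06 on day 18. It was thus high on days 2 and 4 and returned most of the way. On day 6 compared with day 2, Mars1 was higher by 1.03 ± 0.10 (adjusted p = 2.38e-08) and Mars2 changed by -0.66 ± 0.11 (adjusted p = 2.35e-05). A second Mars1 probe rose less, by 0.41 from day 2 to day 4 and 0.18 from day 4 to day 6. These genes also had the widest courses, with day means spanning 4.35-fold for Mars2 and 3.57-fold for Mars1, against a median span of 1.83-fold over all genes.

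Tryptophan was the other pair in which the mitochondrial change was not the higher one, since Wars was higher on day 6 by 0.32 ± 0.12 (adjusted p = 0.0306) and Wars2 did not pass. Without replicate 3 of day 6 the change of Wars was 0.24 (adjusted p = 0.142). The remaining pairs held a gene that did not pass. Ears2, the glutamate enzyme of mitochondria (chromosome 7, 122034162 to 122067094), had 9.10, 9.10 and 9.13 on day 6, against 8.23, 8.08 and 8.12 on day 2. It was higher by 0.97 ± 0.07 (adjusted p = 7.49e-10), while Eprs changed by -0.02 ± 0.26 (adjusted p = 0.96). Aars2 was higher by 0.55 ± 0.16 (adjusted p = 0.00857), but without replicate 3 of day 6 it was 0.44 (adjusted p = 0.0527). Sars2 was higher by 0.48 ± 0.14 (adjusted p = 0.00788).

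**Figure D4:**
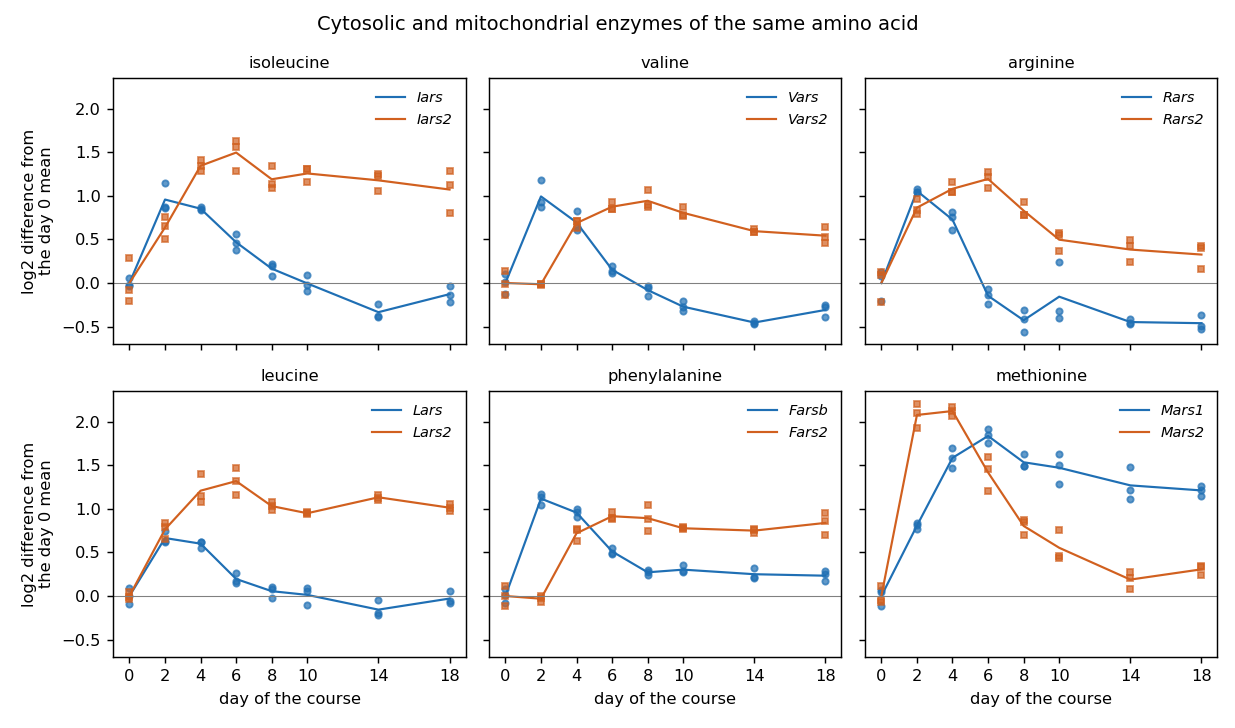
Log2 difference of every array from the day 0 mean of its gene, by day, for 6 amino acids with a cytosolic (blue circles) and a mitochondrial (orange squares) enzyme; lines join day means. In 5 panels the mitochondrial line lies above the cytosolic one from day 6 on, and in the methionine panel Mars2 lies above Mars1 on days 2 and 4 and below it from day 6 on.

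Late in the course both sets declined. On day 18 versus day 6, 9 of 18 cytosolic genes fell and 0 rose, and 7 of 12 mitochondrial genes fell and 0 rose, against 18% of all genes higher and 18.5% lower. Under the block Tars rose by 0.28 (adjusted p = 0.028), while Aars, Rars and Aars2 fell by 0.20, 0.31 and 0.34 (adjusted p = 0.0338, 0.0472 and 0.0245). Mars2 changed most, at -1.11 ± 0.11 (adjusted p = 6.27e-08), followed by Rars2 at -0.87 ± 0.10 (adjusted p = 1.20e-06) and Eprs at -0.83 ± 0.26 (adjusted p = 0.0166). The call of Eprs was lost without replicate 1 of day 6 (-0.68, adjusted p = 0.0836) and without replicate 3 of day 18 (-0.61, adjusted p = 0.105). Leaving out 1 array at a time gave 6 to 10 cytosolic and 5 to 7 mitochondrial genes lower. Iars2 and Lars were each lost in 3 of the 6 fits, Pars2 in 2, and Gars and Lars2 in 1 each. Fars2 stayed at 9.80, 9.89 and 9.64 on day 18, against 9.81, 9.91 and 9.84 on day 6, values that overlapped.

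Over the whole course, day 18 versus day 0, 4 cytosolic genes were higher and 5 lower, against 23.2% of all genes higher and 34% lower. Mars1 was higher by 1.21 ± 0.10 (adjusted p = 1.62e-09), and Gars, Wars and Farsb by 0.31, 0.30 and 0.23. Under median scaling 5 were higher and 4 lower. Without replicate 1 of day 18 the calls of Gars (0.23, adjusted p = 0.109) and Wars (0.28, adjusted p = 0.0879) were lost, which left 2. Wars was lost in 5 of the 6 fits that leave out an array, with adjusted p up to 0.181, and Gars in 2. Qars had 10.11, 9.95 and 10.08 on day 18, against 10.96, 10.83 and 10.80 on day 0. All day 18 values were lower, with a change of -0.82 ± 0.10 (adjusted p = 3.10e-07), and Rars, Farsa, Nars and Vars changed by -0.46, -0.37, -0.31 and -0.31. Farsa was lost in 4 of those 6 fits, with adjusted p up to 0.174, and Nars without replicate 1 of day 0 (-0.25, adjusted p = 0.0535). Of the mitochondrial genes 7 were higher and 0 lower. Iars2 (1.07 ± 0.13, adjusted p = 5.70e-07), Lars2 (1.01 ± 0.09, adjusted p = 2.22e-09), Ears2 (0.88 ± 0.07, adjusted p = 2.83e-09) and Fars2 (0.84 ± 0.08, adjusted p = 2.59e-08) changed most, and Vars2, Rars2 and Mars2 by 0.54, 0.33 and 0.31. Mars2 was lost in 3 of 6 fits that leave out an array and Rars2 in 2, with adjusted p up to 0.0685 and 0.0916. The blocked fit also called Tars (0.34, adjusted p = 0.0063) and Aars2 (0.38, adjusted p = 0.00879) higher, and Kars (-0.16, adjusted p = 0.0405) and Wars2 (-0.29, adjusted p = 0.00638) lower.

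The scaffolds of the complex did not all move with its enzymes. On day 2 versus day 0, Eef1e1 rose by 1.29 ± 0.15 (adjusted p = 2.41e-07) and Aimp2 by 1.04 ± 0.16 (adjusted p = 1.70e-05), and Aimp1 was at -0.01 and did not pass. On day 6 versus day 4 all 3 fell, Aimp2 by 0.74 (adjusted p = 0.00148), Eef1e1 by 0.42 (adjusted p = 0.0349) and Aimp1 by 0.33 (adjusted p = 0.0148) on the log2 scale.

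Other genes of the translation machinery are given by the same counts, from lists chosen with earlier results of these data known. On day 2 versus day 0, 16 of 25 cytosolic initiation factors rose and 1 fell, 4 of 7 elongation factors rose and 0 fell, and all 13 ribosome biogenesis genes tested rose, against 25% of all genes higher and 26.5% lower. With a replicate block 17 initiation factors rose and 3 fell, and 5 elongation factors rose. Eif2b1, a subunit of the exchange factor of eIF2, rose by 1.46 ± 0.16 (adjusted p = 1.67e-07), Eif5a, which helps translation elongate, by 1.36 ± 0.12 (adjusted p = 1.02e-08), and the nucleolar protein gene Nop56 by 2.24 ± 0.21 (adjusted p = 1.17e-08). Of 50 genes for tRNA transcription, processing and export 25 rose and 5 fell (29 and 6 with the block). Pop5, a subunit of RNase P, which trims tRNA 5′ ends, rose by 1.57 ± 0.07 (adjusted p = 3.65e-13), and Gtf3c5, a subunit of the RNA polymerase III factor TFIIIC, fell by 0.68 on the log2 scale (adjusted p = 2.77e-06). On day 6 versus day 2 the initiation factors counted 0 higher and 13 lower, and the elongation factors 0 and 7. The biogenesis genes counted 0 and 13 and the tRNA genes 3 and 25, against 23.5% of all genes higher and 27.4% lower. With the block the initiation factors counted 0 and 15 and the tRNA genes 4 and 32. Nsun2, a tRNA methyltransferase, was among the 25 lower tRNA genes at -1.45 ± 0.11 (adjusted p = 3.03e-10).

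On day 2 versus day 0 the mitochondrial machinery was called higher in 19 of 25 translation factors and tRNA enzymes, with 0 lower. Of 71 ribosomal proteins 53 were higher and 3 lower, against 25% of all genes higher and 26.5% lower. With a replicate block 21 of the 25 and 57 of the 71 were higher, with 0 and 3 lower. Gfm1, a mitochondrial elongation factor, rose by 1.40 ± 0.13 (adjusted p = 1.43e-08) and Mrpl12, a ribosomal protein, by 1.69 ± 0.08 (adjusted p = 4.79e-13). On day 6 versus day 2, 14 of the 25 were higher and 1 lower, and 25 of the 71 were higher and 11 lower. Of all genes 23.5% were higher and 27.4% lower. With the block the counts were 15 and 1 of the 25, and 30 and 14 of the 71. In that comparison the median was 0.13 for the ribosomal proteins and 0.42 for the translation factors and tRNA enzymes. It was 0.51 for the mitochondrial synthetases. These days were chosen from the synthetase courses, so the medians do not rank the lists. Mtrf1, a release factor of mitochondria, was higher by 1.07 ± 0.14 (adjusted p = 1.39e-06).

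**Figure D5:**
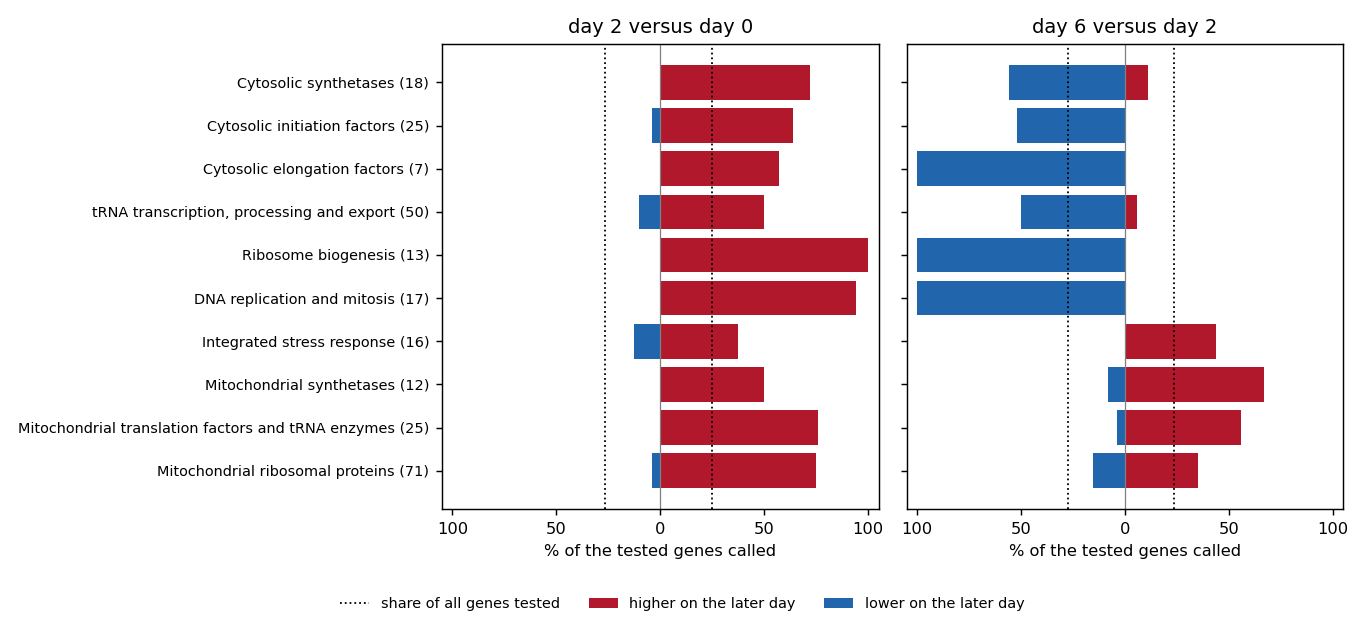
Share of the tested genes of each list called higher (red, right) or lower (blue, left) on day 2 versus day 0 and on day 6 versus day 2; numbers in brackets are genes tested and dotted lines are the shares of all genes. The cytosolic lists point right in the first panel and mostly left in the second, and the mitochondrial lists point mostly right in both.

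Of the integrated stress response genes, 6 of 16 rose and 2 fell on day 2 versus day 0, against 25% of all genes higher and 26.5% lower, with Asns, asparagine synthetase (an amidotransferase and no tRNA enzyme), at 0.92 ± 0.13 (adjusted p = 3.61e-06) and Ddit3, the factor CHOP, at -1.25 ± 0.16 (adjusted p = 1.08e-06). On day 6 versus day 2, 7 rose and 0 fell, against 23.5% of all genes higher and 27.4% lower. The largest were Trib3, a pseudokinase induced by ATF4, at 3.64 ± 0.22 (adjusted p = 1.46e-11), and Ddit3 at 2.66 ± 0.16 (adjusted p = 1.55e-11). Atf4 itself was split by replicate like Tars. On day 2 versus day 0 it was at 0.84 ± 0.45 and did not pass (adjusted p = 0.136), but with a replicate block it rose by 0.84 ± 0.14 (adjusted p = 2.21e-05). On day 6 versus day 2 it was at -0.15 ± 0.45 (adjusted p = 0.815). The block raised the counts of the list to 9 higher and 3 lower in the first comparison and to 8 higher and 2 lower in the second. Of the genes with the CARE letters in the windows shown above, Yars aside, Gars and Iars rose on day 2. Aars did not pass on day 2, nor did Tars without the block. On day 6 versus day 2 Iars fell, and Aars, Gars and Tars did not pass without the block. Of the cytosolic genes whose windows lacked the letters, Eprs, Farsa, Farsb, Kars and Mars1 rose on day 2, and Qars and Sars did not pass. A link between the letters and these courses was not tested.

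Among genes of amino acid supply, Slc7a5, a transporter of large neutral amino acids, rose by 2.07 ± 0.10 (adjusted p = 1.56e-12) on day 2 versus day 0. In that interval 3 of 10 transporters rose and 2 fell, near the 25% of all genes higher and 26.5% lower. With a replicate block 4 rose and 2 fell. Of 8 serine and one-carbon genes 6 rose and 1 fell, against the same shares. Mthfd2, a mitochondrial folate enzyme, rose by 2.39 ± 0.12 (adjusted p = 1.23e-12), beside the rise of Mars2 in the same interval, and Aldh1l2, another mitochondrial folate enzyme, fell by 1.44 on the log2 scale (adjusted p = 4.02e-09).

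Markers of cell state also changed over the course. Of the 17 DNA replication and mitosis genes tested 16 rose on day 2 versus day 0 (17 with a replicate block). On day 6 versus day 2, 17 fell. Their summed linear intensity per array was 6774 to 7287 on day 0, 12698 to 13553 on day 2 and 2107 to 2313 on day 6. Their part in the cytosolic rise and fall was not tested. All 9 adipocyte markers were detected and 8 rose on day 2, with summed intensities of 824 to 961 on day 0, 8087 to 8146 on day 2, 37165 to 41486 on day 6 and 30792 to 37875 on day 18. Adipoq, the adiponectin gene, was undetected on day 0 and had 10.97 ± 0.10 on day 2, and Pparg, the main adipogenic receptor, had 11.62 ± 0.10 on day 2, against 9.39 ± 0.16 on day 0. All 7 fibroblast markers fell on day 2, to summed intensities of 11466 to 13040, against 35507 to 36555 on day 0, and were at 4802 to 5322 on day 6 and 11282 to 13272 on day 18. Dlk1, the preadipocyte factor, was at 10.83 ± 0.18 on day 6 and Col1a1, a collagen chain, at 9.82 ± 0.36. The part of these shifts in the synthetase courses was not tested. Of the markers of other cells, Ucp1 of brown fat and the 4 endothelial genes were detected on no more than 2 arrays, as were the macrophage genes Adgre1 and Ptprc, while Cd14, Myog, Des and Cdh1 passed the detection filter. Des, the muscle filament gene desmin, was higher on day 6 than on day 2 by 2.74 ± 0.10 (adjusted p = 1.22e-14), and its part in these results was not tested. Cd14, a macrophage marker, fell by 0.84 on the log2 scale on day 2 versus day 0 (adjusted p = 7.41e-05), and its part was not tested either.

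The precision of these values rests on the number of arrays and on signal over background. Between 45.5% and 48.8% of probes were detected per array, and the SD between replicates over members and days had a median of 0.11 and a range of 0.01 to 0.68. Differences that start near background, as for Yars, Hars, Nars2, Sars2, Aars2 and, on day 0, Mars2, are compressed by an offset. Across genes the day 4 arrays correlated at 0.982 for replicates 1 and 2, 0.990 for replicates 1 and 3, and 0.991 for replicates 2 and 3.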

How the data were processed

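Total RNA of 24 samples was hybridised to Illumina beadchips, and the submitters' processing notes name GenomeStudio 2011.1. The deposited table used here holds linear probe intensity for 25697 probes, not normalized, and the authors deposited a detection p-value beside each intensity. A second deposited table of intensity, background-subtracted and normalized (the method is not stated in the labels), was tried as an alternative.

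Background correction, quantile normalization and the log2 step used neqc (limma 3.58.1, R 4.3.3), with negative controls inferred from detection p and an offset of 16. Kept were the 14160 probes detected (p under 0.05) on 3 or more arrays, and each gene was represented by its brightest probe, giving 9558 genes. Of all probes 23978 carried 1 gene symbol, 0 several and 1719 none, and symbols were updated through Entrez identifiers. Positions and promoter windows come from the RefSeq annotation of GRCm38.p6.

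All arrays entered a single limma model with 1 coefficient per day (16 residual degrees of freedom), with moderated contrasts and an F test, called at a Benjamini-Hochberg adjusted p under 0.05 over all genes. A probe undetected on all arrays of a day gives a bound: the bright day's mean over the higher of the lowest detected signal and the probe's own on each array of the dim day. The procedure without a block was tested on simulated data with independent noise on each array. That simulation does not cover samples that deviate together by replicate number. Replicate numbers come from the labels. The 84 pairs of samples with the same number on different days had correlated deviations from the day means (lowest 0.25, median 0.53, highest 0.76). Of 168 pairs with different numbers, 39 exceeded 0.1. The numbers were therefore taken to pair samples in an alternative fit, with replicate number as a block. The main fit did not use the pairing, and its values are those given wherever no block is named. The blocked value is given where it changes a synthetase call or the count of a related list in the comparisons described.

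The genes and related lists were chosen with earlier results of these data known. Named are all kept synthetases, called members of the related lists with the largest changes (up to 4 each way), the 5 most similar genes per compartment, and Adipoq, Pparg, Dlk1 and Col1a1. Atf4 was added after its values were seen. Alternatives were no background correction, median scaling, the authors' table, no detection filter, probes detected on all arrays, the mean of a gene's probes, only the days compared, the replicate block and leaving out each array. Day 6 versus day 2 and its alternatives were added after the data had been seen.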

Additional observations from a re-analysis of the deposited data

How the results depend on the processing

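No single-gene change of the 30 synthetases changed direction past the threshold over the 6 comparisons between days: of 2496 values under an alternative, 2363 kept their side of the threshold, 55 now passed and 78 no longer did. With replicate as a block 1 cytosolic gene was higher on day 6 versus day 4 and 1 on day 18 versus day 6 (0 in each without it), 1 mitochondrial gene was lower on day 2 versus day 0 and 1 on day 18 versus day 0 (0 in each without it), and 4 cytosolic genes were higher on day 6 versus day 2 (2 without it); it moved no other count of synthetase calls by over 1.5 times. Without background correction 1 cytosolic and 4 mitochondrial genes were higher on day 6 versus day 4, against 0 and 2. The mitochondrial count in that comparison was 1 with probes detected on all arrays and 0 with only the days compared in the fit, which leaves fewer arrays. On day 6 versus day 2 the cytosolic count of higher genes was 4 with median scaling and 1 with the mean of a gene's probes. Leaving out 1 array at a time gave 1 to 3 cytosolic genes higher and 2 to 4 lower on day 4 versus day 2, 2 to 3 higher on day 18 versus day 0, 1 to 4 higher on day 6 versus day 2, and 1 to 2 mitochondrial genes higher on day 6 versus day 4. The cause was not tested. In the authors' table the median of all genes lay 0.11 to 0.13 lower on days 10 to 18 than on day 0. Dim probes (Yars, Hars, Nars2, Sars2) limit what can be resolved.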

Other observations

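The genes outside the set whose 8 day means were most like the average cytosolic course were Lef1, Setd6, Cyrib, Id1 and Mtrr, with Pearson r of 0.98 to 0.99 across the 8 days, out of 3901 genes compared. Mtrr encodes methionine synthase reductase, and Lef1 and Id1 are transcriptional regulators. Those most like the average mitochondrial course were Cipc, Slc11a2, Dvl1, Slc1a5 and Ppp1r15a, with r of 0.98 to 0.99. Slc1a5 is a glutamine transporter and Ppp1r15a a phosphatase subunit of the integrated stress response. The day means share arrays and normalization, so these values only describe likeness. Within the cytosolic set, the correlation of a gene's day means with the average of the others was highest for Iars (0.98) and Lars (0.97), 0.14 for Mars1, and -0.38 for the dim probe of Hars. Within the mitochondrial set it was highest for Ears2 (0.94) and Aars2 (0.91), 0.44 for Mars2 and -0.36 for Wars2.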
